A study of Mus musculus with 16 samples.

Results

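LSK cells are the bone marrow fraction that carries no mature lineage markers but carries Sca1 and c-Kit, and it holds the haematopoietic stem cells and the earliest multipotent progenitors. The genes described here are those that changed in LSK cells of wild-type (WT) mice 2.5 h after gamma irradiation with 5 Gy. The comparison takes 4 of the series' 16 arrays, namely 2 from irradiated and 2 from unirradiated WT mice of strain C57BL/6J, and sets each irradiated array against both unirradiated ones. The other 12 arrays hold Parp-2-/- LSK cells (same strain, lacking the DNA damage sensor Parp-2) and myeloid progenitors (MP) of both genotypes. MP cells are lineage-negative, Sca1-negative and c-Kit-positive. All of these were taken with and without irradiation, at the same dose and time. Every array was hybridised with RNA from 1 pool of at least 3 mice, and the groups hold 2 pools each. The labels do not say whether the mice or their isolated cells were irradiated. Less of a transcript can mean fewer cells of a type or less RNA per cell, and pooled arrays cannot tell these apart.

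Ionising radiation breaks DNA, and the kinases that sense the breaks stabilise the transcription factor p53. p53 switches on genes that stop the cell cycle, repair DNA, feed back on p53 itself (Mdm2 is its ubiquitin ligase) or start apoptosis through death receptors and BH3-only proteins. At the same time the G2 checkpoint halts entry into mitosis, and damage can also signal through NF-kappaB and interferon pathways. In the haematopoietic system these programmes decide whether stem and progenitor cells survive irradiation.

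6 promoters of genes of these programmes are shown. Only windows that hold a match are shown, so they do not tell how common a motif is. Cxcl10 is the interferon example because Mx1 and Mx2 have no window, and its rise was called less firmly than theirs (below). They are RefSeq windows of assembly GRCm38.p6, each with 250 bases before and 50 bases from the start site on, written 5′ to 3′ on the gene's strand. Capitals mark matches on either strand to a motif known for the pathway. The first pair belong to p53 targets that rose, and the capitals mark the 10-base p53 decamer (a p53 response element is made of 2 of these). In Polk the match begins at -231 and in Ccng1 at -185 from the start site. Windows of the p53 targets Phlda3 and Slc19a2, which also rose, hold no decamer. Polk (chr13:96519138-96519437, minus strand):
Polk: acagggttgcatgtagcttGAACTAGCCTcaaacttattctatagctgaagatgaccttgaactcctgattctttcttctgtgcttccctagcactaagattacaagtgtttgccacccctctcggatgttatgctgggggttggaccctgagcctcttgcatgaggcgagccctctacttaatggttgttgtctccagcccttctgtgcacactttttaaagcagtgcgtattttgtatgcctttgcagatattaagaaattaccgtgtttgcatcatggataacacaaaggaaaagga
Ccng1 (chr11:40755237-40755536, minus strand):
Ccng1: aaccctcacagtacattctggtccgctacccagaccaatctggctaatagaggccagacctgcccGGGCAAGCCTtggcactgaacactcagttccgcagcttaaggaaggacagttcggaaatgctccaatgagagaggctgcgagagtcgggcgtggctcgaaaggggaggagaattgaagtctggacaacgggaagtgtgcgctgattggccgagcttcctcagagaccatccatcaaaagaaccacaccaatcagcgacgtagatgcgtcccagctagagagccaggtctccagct
Tnip3 gave the largest rise among called genes, and its window (chr6:65590148-65590447, plus strand) holds an NF-kappaB site at -54:
Tnip3: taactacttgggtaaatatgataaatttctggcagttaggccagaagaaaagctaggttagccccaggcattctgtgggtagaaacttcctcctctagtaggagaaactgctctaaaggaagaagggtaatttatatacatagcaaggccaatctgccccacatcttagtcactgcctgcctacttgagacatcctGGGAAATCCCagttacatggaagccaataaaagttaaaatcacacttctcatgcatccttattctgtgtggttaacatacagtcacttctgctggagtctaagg
Cxcl10, an interferon-induced chemokine gene, has the core of the interferon-stimulated response element (ISRE; GAAANNGAA) at -213 (chr5:92348840-92349139, minus strand):
Cxcl10: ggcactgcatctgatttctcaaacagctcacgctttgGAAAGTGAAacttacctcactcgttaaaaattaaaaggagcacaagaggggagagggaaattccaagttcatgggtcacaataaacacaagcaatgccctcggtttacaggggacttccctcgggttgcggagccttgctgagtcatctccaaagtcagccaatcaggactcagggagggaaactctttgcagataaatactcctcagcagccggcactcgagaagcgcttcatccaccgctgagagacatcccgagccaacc
Plk1, a mitotic kinase gene that fell, has the cell cycle genes homology region (CHR; TTTGAA) at 31 bases after the start (chr7:122159185-122159484, plus strand):
Plk1: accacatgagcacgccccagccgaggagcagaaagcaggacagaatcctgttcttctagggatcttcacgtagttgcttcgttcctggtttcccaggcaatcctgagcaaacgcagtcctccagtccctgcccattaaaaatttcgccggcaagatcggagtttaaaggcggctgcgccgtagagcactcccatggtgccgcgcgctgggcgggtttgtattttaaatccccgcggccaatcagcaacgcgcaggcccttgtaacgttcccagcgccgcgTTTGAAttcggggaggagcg
Nr4a1, the immediate early gene with the largest fall, has the short form of the cAMP response element (TGACG) at 4 places, beginning at -233, -213, -69 and -40 and all on the opposite strand (chr15:101266596-101266895, plus strand):
Nr4a1: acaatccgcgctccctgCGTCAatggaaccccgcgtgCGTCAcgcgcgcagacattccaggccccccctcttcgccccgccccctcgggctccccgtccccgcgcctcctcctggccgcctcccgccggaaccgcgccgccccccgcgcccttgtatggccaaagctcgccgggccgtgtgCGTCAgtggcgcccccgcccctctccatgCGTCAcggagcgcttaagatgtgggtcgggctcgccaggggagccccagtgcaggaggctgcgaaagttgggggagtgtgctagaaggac

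The values are log2 intensities of transcript clusters, here called rows, as deposited. A change is the mean of both irradiated arrays minus the mean of both unirradiated arrays in log2 units, given ± its standard error, so that a change of 1 doubles the intensity. Of 22961 rows that carry at least 1 gene symbol, 35 were called, which means an adjusted p under 0.05 (limma's moderated test with the spread estimated from 8 LSK arrays, Benjamini-Hochberg adjustment over all tested rows). Of these, 28 were higher after irradiation (0.122% of tested rows) and 7 were lower (0.0305%). On all 35 rows the irradiated and unirradiated arrays did not overlap. Over the whole table both irradiated arrays lay above both unirradiated arrays on 16.4% of rows and below them on 20.5%. With the spread estimated from all 16 arrays, 270 rows were higher (1.18%) and 143 lower (0.623%), and the 35 were all among them. Statements below name the fit of 16 arrays where a gene passed only there.

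The number of calls depended on single arrays. Leaving out irradiated pool 1 or irradiated pool 2 gave 0 calls with 8 LSK arrays (smallest adjusted p = 0.129 and 0.122, with 1695 and 2320 rows at an unadjusted p under 0.05). Leaving out unirradiated pool 1 gave 11 calls and unirradiated pool 2 gave 3. In such a fit the lone remaining array is assumed to vary like the other groups. With 16 arrays the counts without each array were 248 (irradiated pool 1), 506 (irradiated pool 2), 501 (unirradiated pool 1) and 253 (unirradiated pool 2), against 413. Of the 35 called rows, 33 were called in every one of these 4 fits of 16 arrays, with Rgs1 and Rap2a as the exceptions. Where the text says that a gene kept its call with any array left out, it refers to these 4 fits. The directions of the 35 rows stayed the same in every fit that was run.

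The arrays resembled each other closely. Their medians lay between 4.85 and 4.92, and Pearson's r over tested rows was 0.971 between the irradiated pools and 0.969 between the unirradiated pools, against 0.955 to 0.967 between the groups (across genes, which are not independent replicates). Irradiated pool 1 had the narrowest spread over rows (SD 1.890) and irradiated pool 2 the widest (SD 2.029). The labels say that pools are separate but give no dates, so p-values measure the spread between pools, which may be partly technical. The LSK label was set against marker genes. Kit read 8.89 and 9.27 on the irradiated and 9.37 and 9.28 on the unirradiated arrays, and the stem cell factors Hlf (8.37 and 8.76; 8.91 and 9.08) and Meis1 (8.89 and 9.23; 9.37 and 9.18) also lay above the medians. Among genes that define mature cells, Cd3e of T cells, Ms4a1 of B cells and Ly6g of neutrophils read at most 4.67, 3.43 and 3.42 on these arrays, below the medians. Of the whole lists, 4 to 6 of 19 T and NK cell genes, 4 or 5 of 15 B cell genes and 3 to 5 of 13 neutrophil genes lay above an array's median. So did 23 to 27 of 30 stem cell genes, but also 21 or 22 of 22 granulocyte and monocyte progenitor genes. MP cells carry c-Kit too, so Kit does not separate LSK from MP cells.

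**Figure D1:**
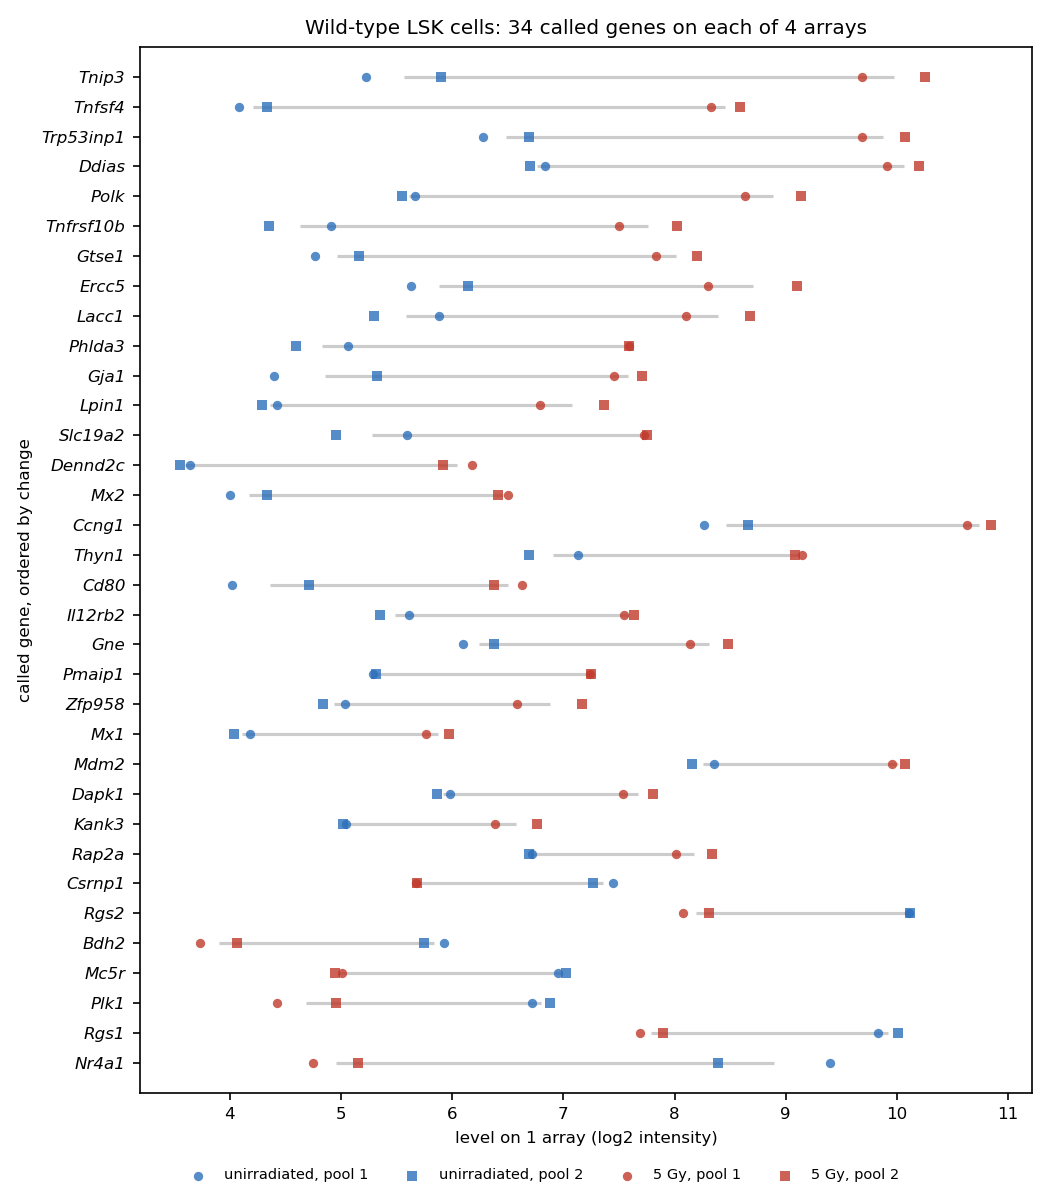
Each row of the plot is 1 called gene, and the horizontal axis is its log2 intensity on each of the 4 WT LSK arrays (circles, pool 1; squares, pool 2; blue, unirradiated; red, 5 Gy), with a grey line joining the group means. The 27 genes in the upper part were higher in both irradiated arrays and the 7 at the bottom lower, from Tnip3 at 4.41 to Nr4a1 at -3.94 log2 units.

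p53 targets made up the largest group of rises among the gene lists. The lists were chosen with earlier results of these data known. Here and below, list counts beside the shares of all rows are therefore only a description. Outside apoptosis, 43 of 45 listed p53 targets were measured. Of these, 6 rose, 0 fell and 37 did not pass with 8 LSK arrays, and 16 rose with 16 arrays, against 0.122% and 1.18% of all rows. The median change over the 43 was 0.721, against -0.018 over all tested rows. Of the 43, 26 lay higher in both irradiated arrays, against 16.4% of all rows. 12 of the 16 kept their call with any array left out. Cdkn1a was not counted here, because its row carries several symbols, and that row was called in neither fit.

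Trp53inp1, which encodes a p53-induced nuclear protein that promotes p53 phosphorylation, read 9.69 and 10.07 in the irradiated pools and 6.27 and 6.69 in the unirradiated pools. It rose by 3.40 ± 0.30, or 10.5-fold (adjusted p = 0.0181). Mdm2, whose product marks p53 for degradation, went from 8.36 and 8.16 to 9.96 and 10.07, a rise of 1.76 ± 0.19 (adjusted p = 0.0221). Its partner Mdm4, which blocks p53's activation domain, read 9.57 and 9.995 against 7.65 and 8.08 and rose by 1.92 ± 0.22 with 16 arrays (adjusted p = 0.00111), missing the threshold with 8 (adjusted p = 0.0529). Ccng1, which encodes cyclin G1, a partner of the phosphatase that acts on Mdm2, had values of 10.63 and 10.85 against 8.27 and 8.66. It rose by 2.28 ± 0.25 (adjusted p = 0.0236). Ppm1d, a further p53 feedback gene that encodes a different phosphatase, read 8.04 and 8.04 against 7.12 and 6.89. It passed in neither fit (1.04 ± 0.32, adjusted p = 0.357).

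Phlda3, which encodes an inhibitor of AKT signalling, read 7.59 and 7.59 in the irradiated pools against 5.06 and 4.60, and rose by 2.77 ± 0.26 (adjusted p = 0.0199). The irradiated pools nearly coincided here, so the spread lies in the unirradiated pools. Gtse1, which encodes a microtubule-binding protein that holds p53 in check in G2, rose by 3.05 ± 0.29 (adjusted p = 0.0206), with 7.83 and 8.20 against 4.77 and 5.16. It is known to be expressed mainly in G2, as are many of the mitotic genes below that read lower. Slc19a2, the thiamine transporter gene and a known p53 target, rose by 2.46 ± 0.27 (adjusted p = 0.0221) from 5.59 and 4.96 to 7.72 and 7.75. Sesn2, which encodes a stress-induced inhibitor of mTORC1 signalling, read 6.63 and 7.20 against 4.97 and 4.97 and rose with 16 arrays (1.94 ± 0.28, adjusted p = 0.00494).

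7 further members of the list passed only with 16 arrays and had signal above the array medians in both groups on at least 1 array. Ei24, an endoplasmic reticulum gene first found as a p53 target, had the largest of these rises (2.72 ± 0.30, adjusted p = 0.000948), although its unirradiated pools differed by over 1 log2 unit (7.39 and 6.24). The non-coding Pvt1 (2.14 ± 0.29) and the mitotic spindle gene Psrc1 (1.45 ± 0.19) also kept their calls with any array left out, but a second Pvt1 row read 0.17. Zmat3, a zinc finger RNA-binding protein gene (1.64 ± 0.28), the phosphatase gene Ptp4a3 (1.47 ± 0.29), the dicarbonyl and xylulose reductase gene Dcxr (1.27 ± 0.21) and Pidd1, a death domain protein gene that also stands in the apoptosis list (1.27 ± 0.22), did not keep theirs. Epha2, an ephrin receptor gene, rose by at least 1.62 ± 0.22, a lower bound because both unirradiated arrays (4.47 and 4.28) lay below their medians. Not every target went up. Sesn1, a close relative of Sesn2, read 7.93 and 8.22 against 8.05 and 7.93 (0.08 ± 0.23, adjusted p = 0.962), and Ccng2, a relative of Ccng1, read 5.25 and 5.34 against 6.53 and 6.61 (-1.27 ± 0.25, adjusted p = 0.132).

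Apoptosis targets of p53 rose at death receptors and in the mitochondrial arm. Of 21 measured members, 2 rose with 8 LSK arrays and 6 with 16, against 0.122% and 1.18% of all rows. None fell in either fit, and the median was 0.369. Without unirradiated pool 2 this median was 0.186, and without unirradiated pool 1 it was 0.572. Tnfrsf10b, the mouse receptor for the death ligand TRAIL, read 7.496 and 8.02 in the irradiated and 4.91 and 4.35 in the unirradiated pools and rose by 3.13 ± 0.31, or 8.74-fold (adjusted p = 0.0221). Fas, a death receptor, read 6.29 and 7.001 against 4.23 and 3.69 and rose by at least 2.69 ± 0.36 with 16 arrays (adjusted p = 0.00276). Eda2r, a TNF receptor family member that binds ectodysplasin A2, read 5.79 and 6.90 against 3.61 and 3.68 and rose by at least 2.70 ± 0.47 (adjusted p = 0.0125). Both are lower bounds for want of signal above the medians in unirradiated cells, and Eda2r lost its call in some fits with 1 array left out.

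Within the mitochondrial arm the members differed. Pmaip1, which encodes the BH3-only protein Noxa, read 7.24 and 7.25 against 5.29 and 5.31, so that the pools of each group nearly coincided, and rose by 1.94 ± 0.23 (adjusted p = 0.0304). Apaf1, the scaffold of the apoptosome, rose by 1.45 ± 0.17 with 16 arrays (adjusted p = 0.00134), with 8.70 and 8.93 against 7.20 and 7.52. Bbc3, which encodes Puma, read 5.98 and 6.01 against 5.93 and 5.51, and its change of 0.28 ± 0.22 did not pass (adjusted p = 0.803). Among 10 measured pro-survival genes of the BCL2 and IAP families none passed in either fit. Mcl1, needed for the survival of haematopoietic stem cells, read 8.16 and 8.62 against 8.92 and 9.09 (-0.61 ± 0.26, adjusted p = 0.545), and Bcl2 read 7.46 and 7.74 against 8.21 and 8.04 (-0.52 ± 0.22, adjusted p = 0.552).

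DNA repair genes changed in a few members. Of 17 repair genes linked to p53, 3 rose with 8 LSK arrays and 4 with 16, against 0.122% and 1.18% of all rows. The list's median was 0.032. That median was 0.251 without unirradiated pool 1, 0.155 and 0.149 without irradiated pool 1 or 2, and 0.264 with dim rows left out. Polk, a translesion polymerase that copies past bulky lesions, had the smallest p-value of the whole comparison. It read 8.64 and 9.14 in irradiated and 5.66 and 5.55 in unirradiated pools and rose by 3.28 ± 0.25, or 9.7-fold (adjusted p = 0.0131). Ddias, which encodes a DNA damage-induced suppressor of apoptosis, went from 6.83 and 6.70 to 9.91 and 10.20, a rise of 3.29 ± 0.41 (adjusted p = 0.0304). Ercc5, the endonuclease gene that cuts 3′ of a lesion in nucleotide excision repair, rose by 2.82 ± 0.34 (adjusted p = 0.0304), with 8.30 and 9.10 against 5.63 and 6.14.

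The relatives of Polk and Ercc5 did not rise with them at the same threshold. Among all rows, 0.122% were higher with 8 LSK arrays and 1.18% with 16. Of 12 translesion polymerase genes, Polk was the only call with 8 LSK arrays, and Polq, of the theta-mediated end joining pathway, was the other call with 16 (0.79 ± 0.18, adjusted p = 0.0481; lost in every fit with 1 WT LSK array left out). Rev1 read 7.32 and 6.86 against 6.21 and 6.32 (0.83 ± 0.25, adjusted p = 0.357). Of 18 nucleotide excision repair genes only Ercc5 passed in either fit. The damage recognition genes Xpc (-0.56 ± 0.30, adjusted p = 0.673) and Ddb2 (-0.46 ± 0.25, adjusted p = 0.692) both had values below 0. Of 34 double-strand break repair and checkpoint genes, 0 passed with 8 LSK arrays and only Parg with 16. Parg, which degrades poly(ADP-ribose), read 7.92 and 7.67 against 7.17 and 6.88 and rose by 0.77 ± 0.18 (adjusted p = 0.0491), a call lost in 3 of the 4 fits. The poly(ADP-ribose) polymerase genes themselves did not pass. Parp1 read 8.20 and 8.18 against 8.42 and 8.26 (-0.15 ± 0.19, adjusted p = 0.898) and Parp2 7.83 and 7.96 against 7.52 and 7.40 (0.43 ± 0.30, adjusted p = 0.762).

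Among called rows with a symbol, both rises above 4 log2 units lay in genes of TNF and NF-kappaB signalling. Tnip3, whose product binds A20 and restrains NF-kappaB signalling, read 9.69 and 10.25 in the irradiated and 5.23 and 5.90 in the unirradiated pools, and rose by 4.41 ± 0.35, or 21.2-fold (adjusted p = 0.0131). Tnfsf4, which encodes OX40 ligand, a co-stimulator of T cells, read 8.33 and 8.59 against 4.08 and 4.33. It rose by at least 4.25 ± 0.38 (adjusted p = 0.0181), since its unirradiated arrays lay below their medians. Cd80, a co-stimulatory ligand for CD28, read 6.63 and 6.38 against 4.02 and 4.71 on the called row, a rise of at least 2.14 ± 0.29 (adjusted p = 0.0432), and a second, brighter Cd80 row changed by 1.78 and passed with 16 arrays.

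Of 37 measured NF-kappaB and inflammatory genes, 2 rose with 8 LSK arrays when Cd80 is counted by its brighter row. With its called row 3 rose, against 0.122% of all rows. With 16 arrays 4 rose and 1 fell (against 1.18% and 0.623%), and the median was 0.115 (0.008 without irradiated pool 2). The 4 were Tnip3, Tnfsf4, Cd80 and Nfkbib, an inhibitor of NF-kappaB (0.92 ± 0.18, adjusted p = 0.0243; called in none of the 4 fits with 1 array left out), and the fall was that of the chemokine gene Ccl4, also an immediate early list member (-1.30 ± 0.24). Classical NF-kappaB feedback genes did not pass. Nfkbia read 7.56 and 7.98 against 7.59 and 7.24 (0.35 ± 0.32, adjusted p = 0.84), Tnfaip3, which encodes A20, 5.76 and 6.63 against 6.62 and 6.51 (-0.37 ± 0.38, adjusted p = 0.865), and Icam1 6.01 and 6.48 against 5.77 and 5.79 (0.47 ± 0.23, adjusted p = 0.638). Of 42 TNF ligands and receptors, 5 rose with 16 arrays (against 1.18% of all rows) and 37 did not pass, with a median of -0.001. These 5 were Tnfsf4, Tnfrsf10b, Fas, Eda2r and the decoy receptor gene Tnfrsf26 (2.11 ± 0.48, adjusted p = 0.0491), whose unirradiated pools lay far apart at 7.02 and 5.06 and which lost its call in 3 of the 4 fits. Cd55, which speeds the decay of complement convertases on the cell surface, was the single call among 8 complement regulators. It read 8.27 and 8.71 against 4.53 and 6.13 and rose by 3.16 ± 0.41 with 16 arrays (adjusted p = 0.00235), while the unirradiated pools differed by more than 1 log2 unit and the fit of 8 LSK arrays gave adjusted p = 0.0645.

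Interferon-stimulated genes read higher over much of the list. Of 41 measured, 2 rose with 8 LSK arrays and 7 with 16, against 0.122% and 1.18% of all rows. With 16 arrays 0 fell and 34 did not pass. 31 of 41 changes were above 0, 21 of 41 (against 16.4% of all rows) lay higher in both irradiated arrays, and the median was 0.563 (0.299 without unirradiated pool 2 and 0.352 without irradiated pool 2). Mx1 and Mx2 encode dynamin-like antiviral GTPases. Mx1 read 5.76 and 5.98 against 4.19 and 4.03 and rose by at least 1.76 ± 0.19 (adjusted p = 0.0236), and Mx2 read 6.50 and 6.41 against 3.999 and 4.34 and rose by at least 2.29 ± 0.28 (adjusted p = 0.0304), both from unirradiated levels below the medians.

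The other interferon calls came with 16 arrays only, and each failed in at least 1 of the 4 fits. Ifi35 failed in all of them, and Cxcl10 and Ifit1 in most. Cxcl10, a chemokine for activated T cells, rose by 2.64 ± 0.57 (adjusted p = 0.0394), and its irradiated pools read 6.83 and 8.32 against 4.63 and 5.24. Ifit1, which binds foreign RNA, rose by 1.81 ± 0.41 with a wide spread between pools (5.69 and 6.51 against 5.05 and 3.53). Parp14, a mono-ADP-ribosyltransferase gene of the interferon response, rose by 1.47 ± 0.25 (adjusted p = 0.0117), Oas2 by 0.80 ± 0.18 and Ifi35 by 0.79 ± 0.17. For Cxcl10, Ifit1 and Parp14 irradiated pool 2, the array with the widest spread over rows, read higher than irradiated pool 1. The transcription factor gene Irf7 went the other way, with 5.45 and 5.43 against 6.18 and 5.96 (-0.63 ± 0.24, adjusted p = 0.484).

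**Figure D2:**
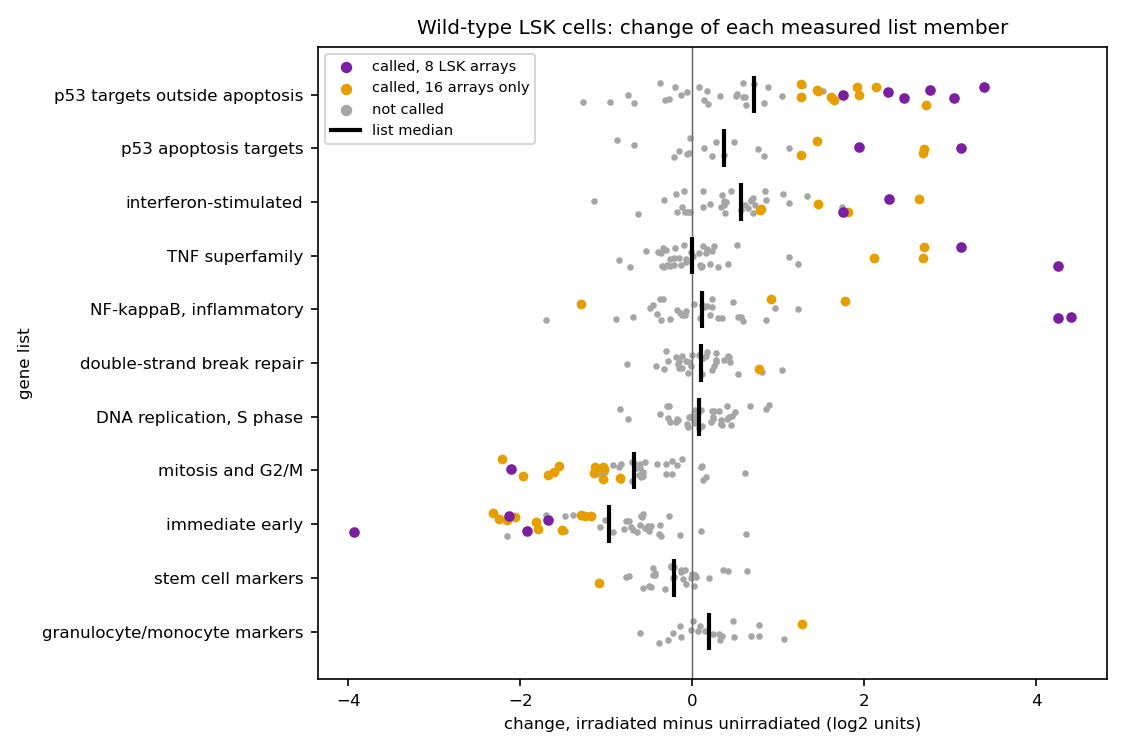
Each point is 1 measured gene of a list, placed by its change in WT LSK cells in log2 units (horizontal axis), with lists on the vertical axis and a black bar at each list's median; colour shows whether the gene was called with 8 LSK arrays (purple), only with 16 (orange) or not (grey). The p53 and interferon lists lie to the right of 0, with medians of 0.721, 0.369 and 0.563, the mitosis and immediate early lists to the left at -0.682 and -0.966, and replication (0.075) and double-strand break repair (0.096) near 0.

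Immediate early genes, which are switched on within minutes by growth factor and stress signals, read lower after irradiation. Of 44 measured, 4 fell with 8 LSK arrays and 14 with 16, against 0.0305% and 0.623% of all rows, and 0 rose. Of the 44, 37 lay lower in both irradiated arrays, against 20.5% of all rows. The median was -0.966. Nr4a1, an orphan nuclear receptor gene that restrains the proliferation of stem cells, had the largest fall of the comparison. It read 4.75 and 5.16 in the irradiated pools and 9.40 and 8.39 in the unirradiated pools and fell by 3.94 ± 0.49, or 15.3-fold (adjusted p = 0.0304).

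Rgs1 and Rgs2 encode regulators of G protein signalling. Rgs1 read 7.69 and 7.89 against 9.83 and 10.01 and fell by 2.13 ± 0.27 (adjusted p = 0.0355), and Rgs2 read 8.08 and 8.31 against 10.11 and 10.12 and fell by 1.92 ± 0.23 (adjusted p = 0.0304). Csrnp1, a nuclear protein gene induced by axin, fell by 1.68 ± 0.20 (adjusted p = 0.0304), and its irradiated pools coincided at 5.68 and 5.68 against 7.45 and 7.27. With 16 arrays further falls were those of Tiparp, a mono-ADP-ribosyltransferase gene induced through the aryl hydrocarbon receptor (-2.32 ± 0.34, adjusted p = 0.00497), and of Fos, the AP-1 subunit (-2.07 ± 0.30, adjusted p = 0.00447). Both kept their calls with any array left out. The Krüppel-like factor gene Klf6 (-2.25 ± 0.37), Ier3 (-2.15 ± 0.43), the ERK phosphatase genes Dusp6 (-1.81 ± 0.30) and Dusp5 (-1.51 ± 0.25), the kinase gene Sik1 (-1.80 ± 0.34), the clock gene Per1 (-1.25 ± 0.24) and Dusp1 (-1.18 ± 0.25) fell with 16 arrays. Sik1 lost its call in all of the 4 fits, Ier3 and Per1 in most, and the others in some.

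Several well-known members had values below 0 without passing. Fosb read 7.49 and 7.86 against 9.62 and 10.04 (-2.16 ± 0.48, adjusted p = 0.193), Atf3 4.804 and 6.59 against 7.22 and 8.33 (-2.08 ± 0.63, adjusted p = 0.357) and the chemokine gene Ccl3 8.36 and 7.96 against 9.89 and 9.84 (-1.70 ± 0.32, adjusted p = 0.128). Jun (-0.59 ± 0.34), Egr1 (-0.77 ± 0.46) and Myc (-0.50 ± 0.21) were smaller in size.

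Genes of mitosis read lower. Of 43 measured, 1 fell with 8 LSK arrays and 12 with 16 (against 0.0305% and 0.623% of all rows), 0 rose, 30 of 43 lay lower in both irradiated arrays (against 20.5%), and the median was -0.682. Plk1, the kinase that drives entry into and progress through mitosis, read 4.42 and 4.95 in the irradiated and 6.72 and 6.88 in the unirradiated pools and fell by 2.11 ± 0.23, or 4.32-fold (adjusted p = 0.0221). With 16 arrays the falls included Cdc25c, the phosphatase that activates Cdk1, which read 4.12 and 4.27 against 5.66 and 5.82 and fell by at least 1.55 ± 0.24 (adjusted p = 0.00747), because its irradiated arrays lay below their medians. Cdk1 itself read 7.17 and 7.06 against 8.17 and 7.74 and fell by 0.84 ± 0.17 (adjusted p = 0.0331).

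The other falls came with 16 arrays. Aspm, the spindle pole gene, fell by 2.21 ± 0.41, although its irradiated pools lay apart at 3.57 and 5.23, and it lost its call in 3 of the 4 fits, as did Cdk1. The importin gene Kpna2 fell by 1.97 ± 0.28 and Cks2, a Cdk subunit gene, by 1.13 ± 0.18, and both kept their calls with any array left out, as did Cdc25c and Plk1. Further rows of Kpna2 read -1.03 and -1.31 and those of Cks2 -1.36 and -1.26. The midzone gene Prc1 (-1.68 ± 0.35), the centromere genes Cenpa (-1.61 ± 0.28) and Cenpf (-1.14 ± 0.20) and the kinesin genes Kif4 (-1.04 ± 0.23), Kif11 (-1.04 ± 0.19) and Kif20b (-1.03 ± 0.18) fell with 16 arrays. Kif4 and Kif11 lost their calls in most of the 4 fits and the others in some. Cdc20, an activator of the anaphase-promoting complex (0.11 ± 0.19), and Bub1, a spindle checkpoint kinase gene (0.10 ± 0.24), had values near 0 and did not pass.

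S phase genes did not share this. Of 43 measured replication genes, 12 lay higher in both irradiated arrays (against 16.4% of all rows) and 5 lower (against 20.5%). None passed in either fit. Of all rows, 0.122% were higher and 0.0305% lower with 8 LSK arrays, and 1.18% and 0.623% with 16. The changes of the 43 had a median of 0.075. The largest were Pole, of the leading strand polymerase (6.92 and 7.57 against 6.09 and 6.62; 0.89 ± 0.33, adjusted p = 0.471), and Tyms, of thymidylate synthesis (7.84 and 7.495 against 6.75 and 6.87; 0.85 ± 0.32, adjusted p = 0.482).

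Promoter motifs are given as a description of the lists, without a test. The RefSeq table holds 32851 windows of 300 bases, and 26 of the named called genes have at least 1. Motifs were searched on both strands, and a longer CRE (TGACGTCA) always contains the short one. CHR occurred in 26 of 38 windows of the mitosis list (68.4%), against 17.9% of all windows, and the CCAAT box (CCAAT) in 30 of 38 (78.9%) against 37.4%. Among genes called lower, CHR occurred in 1 of 8 windows with 8 LSK arrays (12.5%) and in 27 of 111 with 16 (24.3%). The short CRE occurred in 29 of 44 windows of the immediate early list (65.9%) against 20.8%, and the serum response CArG box in 6 of 44 (13.6%) against 1.63%. With 8 LSK arrays the short CRE occurred in 6 of 8 windows of genes called lower (75%). It also occurred in 11 of 27 windows of genes called higher (40.7%). With 16 arrays these shares were 30.6% and 26%. The ISRE core occurred in 19 of 39 windows of the interferon list (48.7%) against 8.56%. Among genes called higher it occurred in 0 of 27 windows with 8 LSK arrays and in 7.72% with 16. The p53 decamer occurred in 10 of 48 windows of p53 targets outside apoptosis (20.8%) and in 7 of 27 windows of genes called higher with 8 LSK arrays (25.9%), against 8.36%. Those 7 windows belong to Ccng1, Gtse1, Il12rb2, Mdm2, Polk and Zfp958. The NF-kappaB site occurred in 4 of 27 windows of the same genes (14.8%) against 4.51%, which belong to Gtse1, Il12rb2, Lacc1 and Tnip3. For genes called higher with 16 arrays the shares were lower, at 13.8% for the p53 decamer and 8.94% for the NF-kappaB site. The AP-1 site (TGANTCA) occurred in 1 of 44 immediate early windows (2.27%) against 7.81%. The GC box (GGGCGG) was common in most of these lists (78.9% in mitosis, 72.7% in immediate early genes) and less so in the interferon list (25.6%), against 35.7% of all windows.

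**Figure D3:**
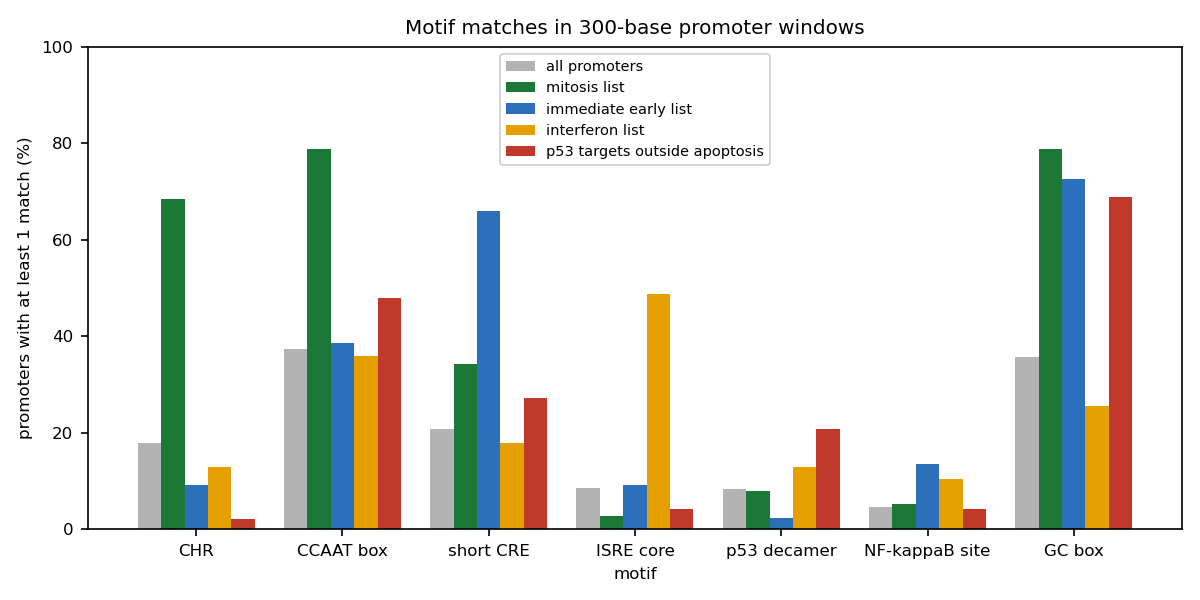
Bars give the percent of 300-base promoter windows with at least 1 match on either strand (vertical axis) for 7 motifs (horizontal axis), in all 32851 windows (grey) and in the windows of 4 gene lists. CHR and CCAAT matches are at 68.4% and 78.9% in the mitosis list, short CRE matches at 65.9% in the immediate early list, and ISRE core matches at 48.7% in the interferon list.

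13 called genes stood in none of the lists. Il12rb2, the signalling chain of the interleukin-12 receptor, read 7.54 and 7.64 in the irradiated and 5.61 and 5.35 in the unirradiated pools and rose by 2.11 ± 0.22 (adjusted p = 0.0221). Gne, the first enzyme of sialic acid synthesis, rose by 2.07 ± 0.21 (adjusted p = 0.0221), with 8.14 and 8.48 against 6.10 and 6.38. Dapk1, which encodes death-associated protein kinase, rose by 1.75 ± 0.19 (adjusted p = 0.0221), with 7.54 and 7.80 against 5.98 and 5.86. Lacc1, a gene of macrophage metabolism and inflammation, read 8.11 and 8.68 against 5.88 and 5.30 and rose by 2.81 ± 0.34 (adjusted p = 0.0304). Gja1, which encodes the gap junction protein connexin 43, read 7.45 and 7.71 against 4.40 and 5.32, with unirradiated pools almost 1 log2 unit apart, and rose by 2.72 ± 0.34 (adjusted p = 0.034).

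The remaining rises of this kind covered several functions. Thyn1 rose by 2.20 ± 0.25 (9.15 and 9.08 against 7.13 and 6.69), the lipin gene Lpin1, of triglyceride synthesis, by at least 2.72 ± 0.36 (6.79 and 7.36 against 4.42 and 4.29), and Dennd2c, which encodes a Rab exchange factor, by at least 2.45 ± 0.26 (6.18 and 5.92 against 3.65 and 3.56). The zinc finger gene Zfp958 rose by 1.94 ± 0.24 (6.59 and 7.17 against 5.04 and 4.84), and Kank3 by 1.55 ± 0.21 (6.39 and 6.77 against 5.04 and 5.02). Rap2a, a small GTPase gene, had the smallest called change at 1.47 ± 0.19 (8.01 and 8.34 against 6.72 and 6.69). Kank3 and Rap2a were called in no fit of the LSK arrays with 1 array left out. Among the falls, Mc5r, a melanocortin receptor gene, read 5.01 and 4.95 against 6.95 and 7.02 and fell by 2.01 ± 0.24 (adjusted p = 0.0304). Bdh2, a cytosolic hydroxybutyrate dehydrogenase gene, read 3.74 and 4.06 against 5.93 and 5.74 and fell by at least 1.94 ± 0.25 (adjusted p = 0.0402), since its irradiated arrays lay below their medians.

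Stress programmes outside DNA damage moved in single genes. For the counts below, 1.18% of all rows were higher and 0.623% lower with 16 arrays. Of 30 ATF4 and unfolded protein genes, 1 rose (Sesn2, counted above) and 2 fell with 16 arrays. These were Ppp1r15a, which encodes the eIF2 phosphatase subunit Gadd34 (-1.23 ± 0.24, adjusted p = 0.0264), and Slc3a2, the heavy chain of amino acid transporters (-1.07 ± 0.16, adjusted p = 0.00497). Slc3a2 kept its call with any array left out and Ppp1r15a did not. Of 24 NRF2 and antioxidant genes, Nfe2l2, which encodes NRF2, rose with 16 arrays (8.82 and 9.004 against 7.94 and 7.90; 0.9955 ± 0.17, adjusted p = 0.0125), while its target Hmox1 read 5.54 and 5.34 against 4.54 and 5.39 (0.48 ± 0.30, adjusted p = 0.742). Of 23 cytoplasmic ribosomal protein genes, only Rps27l, known as a p53 target, rose with 16 arrays (0.98 ± 0.18, adjusted p = 0.0171), and the list's median was -0.021. Nfe2l2 and Rps27l lost their calls in 1 and 2 of the 4 fits. Of 10 heat shock genes and 27 autophagy and lysosome genes, none passed in either fit. Second, dimmer rows of the autophagy genes Map1lc3b and Atg4a read 2.40 and -2.67, and these were called in neither fit.

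Markers of cell type gave few calls. For the counts here and in the next paragraph, 1.18% of all rows were higher and 0.623% lower with 16 arrays. Of 30 stem cell genes, 0 passed with 8 LSK arrays, and Runx1, a transcription factor of blood formation, fell with 16 arrays (7.51 and 7.75 against 8.82 and 8.62; -1.09 ± 0.23, adjusted p = 0.0368), a call lost in every fit with 1 array left out. The stem cell list had 16 of 30 members lower in both irradiated arrays (against 20.5% of all rows) and a median of -0.216. Of 16 lymphoid priming genes none passed, 10 lay lower in both irradiated arrays (again against 20.5%), and the median was -0.253. Dntt, the polymerase of lymphoid progenitors, read 7.62 and 8.31 against 8.66 and 9.31 (-1.02 ± 0.32, adjusted p = 0.362) and Flt3 8.16 and 8.35 against 8.67 and 8.78 (-0.47 ± 0.19, adjusted p = 0.524). Of 22 granulocyte and monocyte progenitor genes, 1 rose with 16 arrays (Igsf6, 1.28 ± 0.26), and the median was 0.195. Mpo, of the granule peroxidase, read 11.25 and 11.41 against 11.38 and 10.99 (0.15 ± 0.20, adjusted p = 0.907).

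Lists of mature cells were near or below the array medians in all 4 arrays. Of 15 B cell genes 4 or 5 lay above the median of an array, of 19 T and NK cell genes 4 to 6, and of 16 macrophage genes 4 to 6. The mean level of B cell genes was 4.30 to 4.52 in irradiated and 4.50 to 4.60 in unirradiated pools, and that of T and NK cell genes 4.47 to 4.49 and 4.57 to 4.73. The T cell and stem cell surface gene Thy1 read 5.67 and 5.84 against 6.60 and 7.97 (-1.53 ± 0.43, adjusted p = 0.318). Of 13 mast cell and basophil genes, the basophil protease gene Mcpt8 rose with 16 arrays (6.59 and 7.69 against 5.65 and 5.44; 1.60 ± 0.35, adjusted p = 0.0422). Of 13 platelet and megakaryocyte genes, Rpgrip1 rose (0.73 ± 0.16) and Gp9 fell (-0.85 ± 0.19) with 16 arrays. Igsf6 and Mcpt8 kept their calls in 1 of the 4 fits each, and Rpgrip1 and Gp9 in 0. None passed with either set of arrays among the B cell, T and NK cell and macrophage lists or among 18 erythroid, 13 neutrophil, 16 dendritic and 17 endothelial and stromal genes. The part of a changed cell mixture in the results above was not tested.

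The same genes were then read in Parp-2-/- LSK cells, each change taken against that genotype's own unirradiated arrays. All 35 called rows had the same sign there, and 20 passed in that comparison. The change was smaller in size in 28 of 35, with a median ratio of 0.825, where a lower value is partly set by choosing rows for a large change in WT. The difference in response between genotypes was called on 0 of 22961 rows (0%; limma, 8 LSK arrays; smallest adjusted p = 0.381, and 1066 rows below 0.05 before adjustment), with a median standard error of 0.343. Bdh2 changed by -0.05 ± 0.25 in Parp-2-/- LSK cells, against -1.94 ± 0.25 in WT, a difference of -1.89 ± 0.36 (adjusted p = 0.784). Slc19a2 went furthest the other way, with 4.40 ± 0.27 in Parp-2-/- and 2.46 ± 0.27 in WT, a difference of -1.94 ± 0.37 (adjusted p = 0.784). Dennd2c changed by 1.02 ± 0.26 in Parp-2-/- cells, a difference of 1.42 ± 0.37 (adjusted p = 0.969). With 16 arrays the genotype difference was called on 2 rows, 1 of them the olfactory receptor gene Olfr652 (-1.87 ± 0.23, adjusted p = 0.0467, with WT at -0.49 and Parp-2-/- at 1.38) and the other a row of several symbols.

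In WT myeloid progenitors all 35 rows again had the same sign, and 27 passed in that comparison (fit of 16 arrays), with a median ratio of 0.806. The difference in response between the cell types was called on 0 rows (0%; limma, 16 arrays; smallest adjusted p = 0.419, and 1272 rows below 0.05 before adjustment). Without unirradiated WT LSK pool 1 it was called on 9 rows and without pool 2 on 2. Nr4a1 changed by -0.90 ± 0.49 in MP cells against -3.94 in LSK cells, a difference of -3.04 ± 0.70 (adjusted p = 0.597). Mc5r changed by -0.40 ± 0.25, a difference of -1.61 ± 0.35 (adjusted p = 0.597), and Bdh2 by -0.19 ± 0.22, a difference of -1.75 ± 0.31 (adjusted p = 0.419). Among the rises, Il12rb2 changed by 0.66 ± 0.24 in MP cells, a difference of 1.45 ± 0.33 (adjusted p = 0.597), and Cd80 by 3.54 ± 0.26, a difference of -1.40 ± 0.36 (adjusted p = 0.619).

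**Figure D4:**
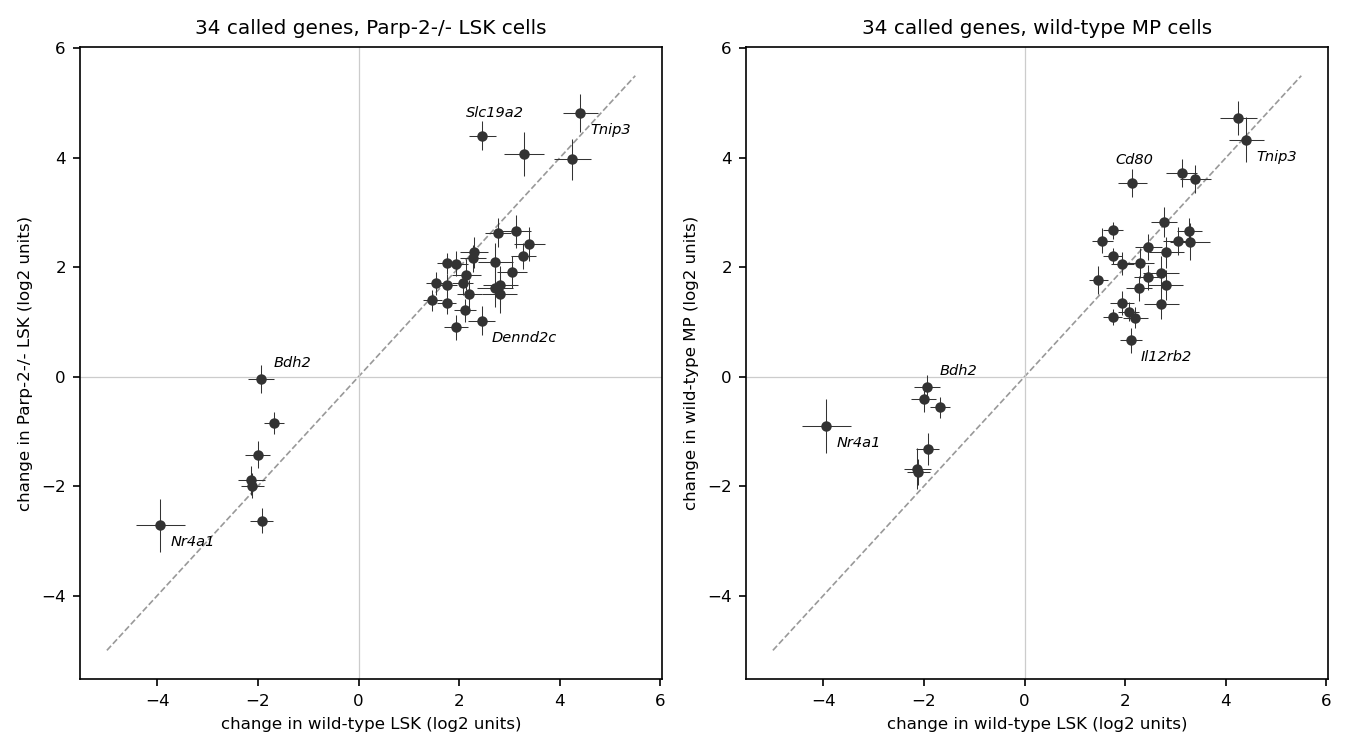
Each point is 1 of the 34 named called genes, with its change in WT LSK cells on the horizontal axis and its change in Parp-2-/- LSK cells (left) or WT MP cells (right) on the vertical axis, all in log2 units; lines are ± 1 standard error (8 LSK arrays for LSK changes, 16 arrays for MP changes) and the dashed line marks equal changes. All points lie on the same side of 0 in both directions, with Bdh2 near 0 in both panels, Slc19a2 above the line at left, and Nr4a1, at -3.94 in WT LSK cells, above the line at right.

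Called genes were spread over the genome. They lay on 16 chromosomes, and chromosome 1 had the most with 6 of 1302 tested rows. Genes called higher with 16 arrays had a median span of 28.6 kb in the RefSeq annotation and genes called lower 13.6 kb, against 18.8 kb for all tested rows with 1 symbol. With 8 LSK arrays the spans were 19.4 and 10.4 kb. Over rows whose unirradiated mean exceeded the array medians, the median change was -0.106 for genes under 5 kb (1892 rows) and 0.057 for genes of 100 to 200 kb (924 rows). For the longest genes, of 200 kb and over (458 rows), it was 0.001. The shares of rows above 0 were 38.2%, 55% and 50% in the same order. These differences were not tested. Set against the unirradiated mean, the 100 to 200 kb genes read -0.001 in irradiated pool 1 and 0.110 in irradiated pool 2.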

How the data were processed

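The deposited table holds log2 intensities from 16 Affymetrix Mouse Gene 1.0 ST arrays, and the authors' processing notes in the labels name RMA, limma, affy 2.10 and R 2.15 without role or order. That the deposited scale is log2 follows from its range (1.12 to 13.37), and nothing was rescaled. RMA shrinks differences of dim probes. The number of arrays limits the precision. Of 34760 rows, 11799 had no symbol and were not tested. A further 21640 had 1 symbol and 1321 several, and apart from Cdkn1a no gene is named from the latter. Symbols were matched by Entrez identifier to RefSeq (GRCm38.p6) for 21553 rows.

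limma 3.58.1 (R 4.3.3) fitted 4 group means over 8 LSK arrays (4 residual and 4.15 prior degrees of freedom) or 8 group means over 16 (8 and 4.35), with two-sided tests. An exact permutation test of 2 against 2 arrays cannot go below p = 0.333. A group whose arrays all read below their medians has no level shown above background, and the size is then a lower bound. The 31 gene lists (756 genes, 692 measured, 11 through an older symbol) and the genes were chosen with earlier results of these data known. In list counts and medians each gene took its row with the highest mean; Cd80 is also described by its called, dimmer row.

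Named genes are called rows with 1 symbol and non-overlapping arrays, without predicted, small RNA and multi-copy genes, the list members called in either fit, up to 4 members of each list by size of change, and Parp1 and Parp2; not all are printed. Chosen after their values were seen were Kit, Hlf, Meis1, Cd3e, Ms4a1, Mpo, Ppm1d, Sesn1, Ccng2, Bbc3, Ddb2, Nfkbia, Tnfaip3, Icam1, Irf7, Jun, Myc, Cdc20, Bub1 and Olfr652. Trp53 is not reported here. Cdkn1a's row carries 2 symbols and was called in neither fit. Simulated data were used only to check the size of the change returned by the fit of the LSK arrays. They give no power and no rate of false calls for any fit. Alternatives were other arrays in the spread estimate, the pool number as a block, normalisation, dim rows left out, all rows tested, a variance trend and each array left out; the fits of 16 arrays with 1 left out were added after seeing the data.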

Additional observations from a re-analysis of the deposited data

Results flagged for a closer look

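Rows without a gene symbol were outside the comparison. When all 34760 rows of the table were tested together, 1 of them was called, and it carries no symbol. This row read 7.44 and 8.02 on the irradiated arrays and 2.98 and 2.62 on the unirradiated arrays, a change of 4.93 ± 0.25 (limma, 8 LSK arrays, adjusted p = 0.0179), which exceeds the change of Tnip3 (4.41 ± 0.35). Its gene is unnamed here.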

How the results depend on the processing

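Of the 28 higher and 7 lower rows, all kept their direction in every fit that was run, while 0 of the 35 were called in every one. The counts of higher and lower rows were 270 and 143 with all 16 arrays, 1 and 0 with all rows tested (where the 35 themselves had adjusted p of 0.0995 or more), and 46 and 13 with an intensity trend and robust prior. The 4 WT LSK arrays alone called 30 rows, 23 of them among the 35, further quantile normalisation 50 (35), arrays centred on their medians 36 (35), and dim rows left out 38 (33). Leaving out 1 of the 8 LSK arrays gave 0 to 35 higher and 0 to 9 lower rows, with 0 calls without either irradiated WT pool. With 16 arrays (added after seeing the data) leaving out 1 WT LSK array gave 163 to 319 higher and 50 to 190 lower. Pool numbers did not pair the samples: the correlations of deviations between same-numbered arrays were -0.08 to 0.05. With the pool number as a block, 26 rows were higher and 6 lower, 27 of them among the 35 (Pmaip1, Lacc1, Rgs1, Rap2a, Bdh2, Cd80, Kank3 and a row of 2 symbols lost their call). The genotype difference in response was called on 0 rows with 8 LSK arrays, on 2 with 16 arrays and on 1 with all rows tested; the cell type difference gave 0 to 9 rows with 1 array left out. These fits differed in the number of arrays or rows. With all rows tested the prior degrees of freedom were also fewer, at 2.48 against 4.15 for rows with a symbol. The cause of the differences in counts was not tested. Signal near background limits the size for 6 called rows in unirradiated and 1 in irradiated cells.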

Other observations

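Some genes outside the lists passed only with 16 arrays and were chosen here after their values were seen, so they are given as values and no list of them was tested. Cell cycle regulators beyond mitosis were among them. The retinoblastoma family genes Rb1 (8.46 and 8.13 in irradiated against 6.68 and 7.18 in unirradiated pools; 1.37 ± 0.28, adjusted p = 0.0319) and Rbl2 (7.90 and 8.34 against 6.66 and 6.62; 1.48 ± 0.26, adjusted p = 0.0145), which hold cells in G1, rose. The Cdk inhibitor gene Cdkn1b, which encodes p27, went the other way on its called row, with 6.39 and 5.96 against 8.03 and 7.49, and fell by 1.59 ± 0.21 (adjusted p = 0.00227); its other row read -0.96 and did not pass. Mybl1, which encodes A-Myb, rose by 2.91 ± 0.33 (adjusted p = 0.00104), with 7.87 and 8.14 against 4.68 and 5.51. Cdkn1b and Mybl1 kept their calls with any WT LSK array left out, while Rb1 and Rbl2 did not.

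Genes of ribosome production in the nucleolus also passed with 16 arrays. Utp20, of the small subunit processome, rose by 1.25 ± 0.18 (adjusted p = 0.00475), with 7.94 and 8.44 against 6.998 and 6.88. Rrn3, the initiation factor of RNA polymerase I, rose by 1.0 ± 0.17 (adjusted p = 0.0131), and the nucleolar genes Pwp1 (1.37 ± 0.24), Pes1 (1.24 ± 0.28), Lyar (0.98 ± 0.15) and Ttf1 (1.03 ± 0.20) rose too, while the nucleolar helicase gene Ddx54 fell (-0.92 ± 0.20), with a second row at -0.23. Utp20 and Lyar kept their calls with any WT LSK array left out, Rrn3 in 3 of 4 such fits, Pwp1 and Ttf1 in 2, Ddx54 in 1 and Pes1 in 0. In WT MP cells the changes of Lyar (-0.20 ± 0.15), Pes1 (0.21 ± 0.28) and Pwp1 (0.17 ± 0.24) were nearer 0, with differences between the cell types of 1.18 ± 0.21 (adjusted p = 0.419), 1.03 ± 0.40 (adjusted p = 0.866) and 1.20 ± 0.33 (adjusted p = 0.711) in the same order. The multidrug transporter gene Abcb1b rose by 2.35 ± 0.36 (8.57 and 8.85 against 6.43 and 6.29; adjusted p = 0.00661), Cybb, of the phagocyte oxidase, by 2.27 ± 0.48 (6.81 and 7.47 against 4.59 and 5.15; adjusted p = 0.0357), and S1pr1, the receptor that guides cells out of tissues, fell by 1.68 ± 0.31 (5.18 and 4.83 against 6.62 and 6.75; adjusted p = 0.0171). Abcb1b kept its call in all 4 such fits, S1pr1 in 2 and Cybb in 0.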
